A study of Mus musculus with 2 samples.

Results

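The genes that encode voltage-gated sodium and calcium channels were followed across the cell classes of the ventral tegmental area (VTA), a midbrain region that holds dopamine neurons. They were chosen by symbol alone: the Scn genes ending in a or b, Cacna1a to Cacna1i, Cacnb1 to Cacnb4 and Cacng1 to Cacng8. The rule found 35 of the 32285 genes in the count tables. The study compared 2 single-nucleus libraries of adult mouse VTA. The first, CCI, came from mice with chronic constriction injury, a model of neuropathic pain in which the left sciatic nerve is loosely tied while the right nerve is only exposed. The second, WT, came from animals labelled as wild type. Both libraries carry the same protocol text on the nerve surgery, so the labels do not say whether the WT animals had a sham operation. Strain, sex, the number of animals pooled, the hemisphere sampled and the time after injury are not in the labels used here. Each group is 1 library, so every difference below describes 2 libraries, carries no test and has no replicate check.

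Voltage-gated sodium channels carry the rising phase of the action potential. Each has a pore-forming alpha subunit (the Scn genes ending in a) and beta subunits (those ending in b) that tune gating and surface expression. Calcium channels turn the voltage change into calcium entry: the L-type pores Cacna1c, Cacna1d and Cacna1f, the P/Q-, N- and R-type pores Cacna1a, Cacna1b and Cacna1e that serve transmitter release, and the low-voltage T-type pores Cacna1g, Cacna1h and Cacna1i. Cacnb genes encode the cytoplasmic beta subunits of the high-voltage types. The Cacng genes were named as gamma subunits, and several of them (Cacng2, Cacng3, Cacng4, Cacng5, Cacng7 and Cacng8) encode TARPs, partners of AMPA-type glutamate receptors. Scn9a encodes Nav1.7, which is best known from peripheral pain-sensing neurons, where its loss in humans abolishes pain. Dopamine neurons of the midbrain fire as slow pacemakers, a rhythm in which Cav1.3, the product of Cacna1d, has been implicated.

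The libraries differed in depth. The CCI library had 68376220 UMIs (single counted RNA molecules) over 13736 barcodes and the WT library 18581333 over 14114, with a median per barcode of 3652 in CCI and 975 in WT. After filtering and doublet removal 12802 CCI and 12128 WT nuclei remained, and 54 barcode sequences occurred in both libraries. Clusters were formed without the 35 channel genes and named from marker genes. The classes held 369 CCI and 835 WT dopaminergic nuclei, 2289 and 2640 GABAergic nuclei, 3235 and 2151 nuclei of the Slc17a6 group (neurons with the vesicular glutamate transporter VGLUT2), 1484 and 1265 astrocytes, 3694 and 3819 oligodendrocytes, 385 and 549 oligodendrocyte precursors (OPCs), and 372 and 241 microglia. Many clusters separated by library. The 2 largest neuron clusters held 340 CCI with 4093 WT nuclei and 3788 CCI with 79 WT nuclei, 236 of the CCI dopaminergic nuclei (64.0%) lay in a subcluster with no WT nucleus, and 91.2% of CCI and 90.4% of WT astrocytes lay in different clusters. Myelin and mitochondrial RNA also moved with the library. Over the 3 neuron groups the 8 oligodendrocyte markers summed to 222 to 307 CPM in CCI and 931 to 1176 CPM in WT, and mitochondrially encoded genes to 1975 to 2570 CPM in CCI and 4193 to 6200 CPM in WT. Their part in the results was not tested.

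Promoter sequences are shown for genes on which the neuron comparisons turn, so that they can be read side by side: Scn9a, and 4 members whose level set dopaminergic nuclei apart (Scn1a, Scn8a, Cacna1i and Cacnb2). They are the 250 bases before a RefSeq start, 5′ to 3′ on the gene's own strand, build GRCm38.p6, with each CG dinucleotide in capitals. The Scn9a window is chr2:66634963-66635212 on the minus strand, Scn1a is chr2:66440838-66441087 on the minus strand, Scn8a is chr15:100870395-100870644 on the plus strand, Cacna1i is chr15:80286988-80287237 on the plus strand and Cacnb2 is chr2:14604056-14604305 on the plus strand.
Scn9a: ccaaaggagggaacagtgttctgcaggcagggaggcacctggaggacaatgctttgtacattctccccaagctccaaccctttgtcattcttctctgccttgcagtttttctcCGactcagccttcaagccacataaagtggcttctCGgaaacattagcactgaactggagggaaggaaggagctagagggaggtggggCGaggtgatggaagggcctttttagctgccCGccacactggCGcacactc
Scn1a: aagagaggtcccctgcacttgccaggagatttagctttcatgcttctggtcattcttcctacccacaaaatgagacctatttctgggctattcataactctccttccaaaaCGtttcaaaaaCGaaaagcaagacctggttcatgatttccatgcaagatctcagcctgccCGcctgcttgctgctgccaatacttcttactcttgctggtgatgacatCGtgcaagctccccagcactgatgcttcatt
Scn8a: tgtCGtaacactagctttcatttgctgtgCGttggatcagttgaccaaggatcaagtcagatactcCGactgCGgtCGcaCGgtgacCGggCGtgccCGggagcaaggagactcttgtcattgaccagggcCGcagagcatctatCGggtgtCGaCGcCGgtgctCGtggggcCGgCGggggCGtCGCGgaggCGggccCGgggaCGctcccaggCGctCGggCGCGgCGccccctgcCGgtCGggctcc
Cacna1i: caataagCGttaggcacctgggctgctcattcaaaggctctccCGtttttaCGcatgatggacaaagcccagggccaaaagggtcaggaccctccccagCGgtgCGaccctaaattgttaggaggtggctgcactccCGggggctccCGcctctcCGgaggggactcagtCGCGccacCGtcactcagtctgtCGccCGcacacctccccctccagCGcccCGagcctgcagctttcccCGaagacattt
Cacnb2: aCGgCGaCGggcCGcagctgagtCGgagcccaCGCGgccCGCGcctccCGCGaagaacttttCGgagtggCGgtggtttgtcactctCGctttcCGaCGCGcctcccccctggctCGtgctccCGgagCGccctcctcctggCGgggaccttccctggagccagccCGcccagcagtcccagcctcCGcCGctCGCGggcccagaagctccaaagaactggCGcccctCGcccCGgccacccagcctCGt

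The Scn9a and Cacna1i windows end where the GENCODE gene begins, and those of Scn8a and Cacnb2 end 787 and 1218 bases inside it. Scn9a had 5 CG dinucleotides and Scn1a 4, close to the median of 6 over all 32851 RefSeq promoter windows, of which 92.1% hold at least 1. Cacna1i had 16, and the windows shown for Scn8a and Cacnb2 had 30 each. Scn8a and Cacnb2 each had a second RefSeq window, not shown, with 9 and 3. The Scn1a window reaches 3 bases into the gene. Each window was searched on both strands for 6 motifs. The CCAAT box, read as CCAAT and present in 33.8% of all windows, was found in Scn1a. The GC box, read as GGGCGG and present in 32.7%, was found in the Cacnb2 window shown and not in its second one. The TATA box, read as TATAAA and present in 12.4%, and the E-box, read as CACGTG and present in 6.02%, were in none of the 5. Nor were the parts of RE1, the site of the repressor REST: the left part was read as CAGCACC and is present in 5.73% of all windows. The right part was read as GGACAGC and is present in 5.28%. Of the 35 members, 26 had an entry.

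Levels are given as CPM, the UMIs of a gene per 1000000 UMIs of its class in that library, with 95% intervals that cover counting error only. Over 22 to 31 members with UMIs enough to rank, CPM followed gene length in the neuron groups (Spearman rho 0.75 to 0.90 over the 3 groups and 2 libraries), so levels are compared between classes and not between genes. In all, 28 members had at least 100 UMIs over the 7 classes in each library. Of these, 21 were highest in a neuron group in both libraries and 4 in a glial class in both. The class with the highest level was the same in 22: dopaminergic for 8 members, GABAergic for 7, Slc17a6 for 3, astrocytes for 2 and OPCs for 2. Shares over all genes are not given beside these counts, so they are not read as particular to channel genes.

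The remaining 7 members had under 100 UMIs in at least 1 library. Cacng5, with 623 UMIs in CCI and 75 in WT, was short of them in WT alone. Cacna1f, the L-type pore of the retina, had 105 UMIs in CCI and 30 in WT. Cacng1, a subunit of the muscle channel, had 56 and 13 UMIs, and Cacng6 had 8 and 0. Scn4a, the sodium channel of skeletal muscle, had 4 UMIs in CCI and 0 in WT. The sodium channels best known from pain-sensing neurons beside Scn9a were also near 0: Scn10a (Nav1.8) had 4 UMIs in CCI and 0 in WT, and Scn11a (Nav1.9) had 21 and 2. Scn7a, a relative of the pores that is thought to sense sodium, was among the 28 but low, and reached 15.3 CPM in CCI and 15.6 CPM in WT Slc17a6 nuclei (377 and 69 UMIs).

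**Figure D1:**
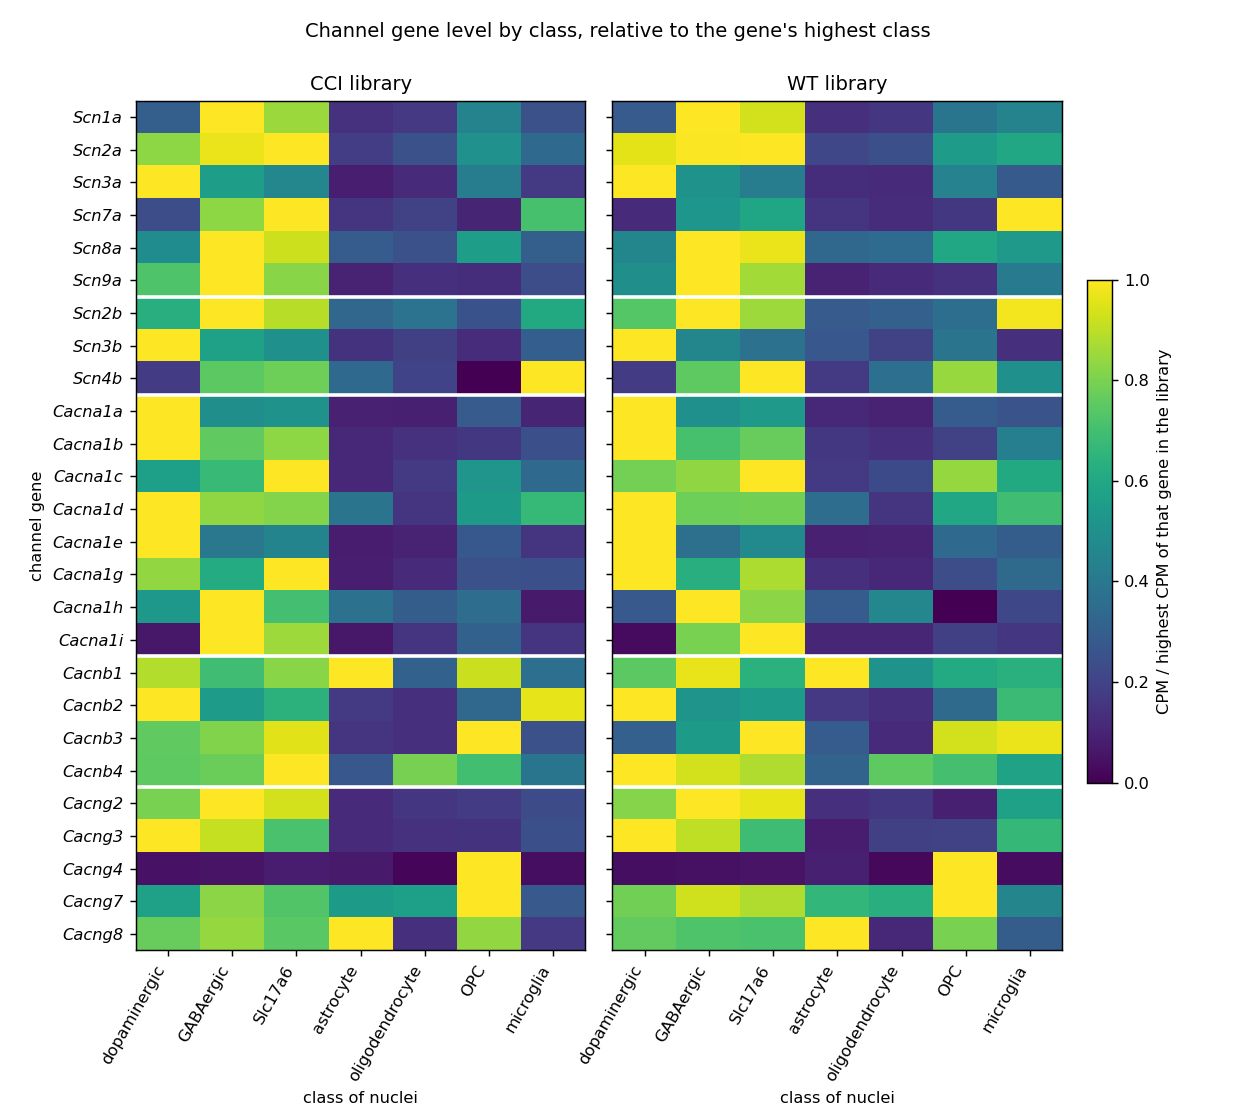
Level of 26 channel genes with at least 100 UMIs in each library (rows) in the 7 classes (columns), CCI library on the left and WT library on the right; the colour is the CPM divided by that gene's highest CPM in the same library. Dopaminergic nuclei stand out for Scn3a, Cacna1a and Cacna1e and are dark for Cacna1i, which was at 3.90 CPM in CCI and 1.56 CPM in WT; Cacng4 was highest in OPCs.

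Dopaminergic nuclei carried a different set of channel genes from the other neurons. Members were compared when they had at least 100 UMIs over both classes together in each library. Of 22 such members, 5 were higher and 4 lower in dopaminergic than in GABAergic nuclei by more than 1.5-fold in both libraries (40.9%). Over all 7704 genes held to the same rule the share was 17.6%, with 6.53% higher and 11.1% lower. Against the Slc17a6 group the same 9 of 22 members passed in the same directions (40.9%, with 16.1% of 7847 genes, 6% higher and 10.1% lower). Both comparisons share the dopaminergic nuclei. Cacna1i, with 14 CCI and 3 WT dopaminergic UMIs, met the minimum through the other class alone, so it could enter only as lower. The shares over all genes hold such genes too. Between the GABAergic and Slc17a6 groups 0 of 25 members passed, where 1.68% of 8969 genes did. The higher members were Scn3a, Scn3b, Cacna1a, Cacna1e and Cacnb2, and the lower ones included Scn1a, Scn8a and Cacna1i. Dopaminergic nuclei were also the deepest of the 3 groups, with medians of 9126 UMIs in CCI and 2103 UMIs in WT, against 5708 and 1298 in GABAergic and 6776 and 1819 in Slc17a6 nuclei. With nuclei thinned to 1000 UMIs 8 of 20 members passed against GABAergic and 10 of 21 against Slc17a6 nuclei.

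Among sodium channel pores the dopaminergic set leaned to Scn3a and away from Scn1a and Scn8a. Scn1a encodes Nav1.1, a main channel of fast-spiking inhibitory neurons. It was at 158 CPM in CCI and 156 CPM in WT dopaminergic nuclei (566 and 300 UMIs), against 523 and 541 CPM in GABAergic and 444 and 503 CPM in Slc17a6 nuclei. Relative to GABAergic nuclei its log2 ratio was -1.73 (-1.86 to -1.61) in CCI and -1.80 (-1.98 to -1.62) in WT. The dopaminergic values of both libraries lay far below all 4 others. Scn8a, which encodes Nav1.6 of the axon initial segment and nodes of Ranvier, was at 167 and 176 CPM in CCI and WT dopaminergic nuclei, against 344 and 384 CPM in GABAergic and 318 and 372 CPM in Slc17a6 nuclei. Scn3a encodes Nav1.3, a channel known for its high level in the embryonic brain and its return in injured sensory neurons of rats. It ran the other way, at 465 and 437 CPM in CCI and WT dopaminergic nuclei, against 258 and 225 CPM in GABAergic and 215 and 185 CPM in Slc17a6 nuclei. Its log2 ratio to GABAergic nuclei was 0.85 (0.77 to 0.93) in CCI and 0.96 (0.82 to 1.09) in WT. The highest Scn3a of any CCI subcluster lay in a GABAergic one of 134 nuclei, with no WT nucleus, at 644 CPM. Scn2a, which encodes Nav1.2, was near level across the groups, at 377 and 375 CPM in CCI and WT dopaminergic nuclei, against 442 and 388 CPM in GABAergic and 455 and 391 CPM in Slc17a6 nuclei.

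Of the sodium channel beta subunits, Scn3b was higher in dopaminergic nuclei, at 73.3 and 65.9 CPM in CCI and WT. GABAergic nuclei were at 41.9 and 30.2 CPM and Slc17a6 nuclei at 36.8 and 24.9 CPM. The highest subcluster was GABAergic in each library, on few UMIs. It was at 87.4 CPM in CCI (19 UMIs, 52.6 to 136) and another at 74.4 CPM in WT (15 UMIs, 41.7 to 123). Scn2b, which is linked to the channel by a disulfide bond, stayed within 1.5-fold in at least 1 library, at 46.5 and 56.0 CPM in CCI and WT dopaminergic nuclei, against 74.3 and 75.9 CPM in GABAergic nuclei.

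Among calcium channel pores the R-type and P/Q-type genes were the ones raised in dopaminergic nuclei. Cacna1e (Cav2.3, R-type) was at 924 CPM in CCI and 820.4 CPM in WT dopaminergic nuclei, against 369 and 302 CPM in GABAergic and 419 and 391 CPM in Slc17a6 nuclei. Its log2 ratio to GABAergic nuclei was 1.32 (1.26 to 1.39) in CCI and 1.44 (1.33 to 1.55) in WT, the highest of the 22 members in both libraries. In WT a subcluster outside the named groups, of 221 nuclei, was higher in Cacna1e than dopaminergic nuclei, at 998 CPM. Another such subcluster, of 92 nuclei in CCI, was at 958 CPM (875 to 1046). That was above the CCI dopaminergic class as a whole and below its larger subcluster, at 985 CPM. Cacna1a (Cav2.1, P/Q-type), the main release channel of many fast synapses, was at 1415 and 1256 CPM in CCI and WT dopaminergic nuclei, against 708 and 632 CPM in GABAergic and 727 and 674 CPM in Slc17a6 nuclei. Cacna1b (Cav2.2, N-type) was highest in dopaminergic nuclei in both libraries but within 1.5-fold, at 462 and 467 CPM in CCI and WT, against 348 and 331 CPM in GABAergic nuclei. Cacna1d (Cav1.3) likewise stayed within 1.5-fold, at 500.3 and 476 CPM in CCI and WT dopaminergic nuclei, against 418 and 371 CPM in GABAergic and 407 and 374 CPM in Slc17a6 nuclei. Cacna1c (Cav1.2) was not raised in dopaminergic nuclei, at 603 and 571 CPM in CCI and WT, against 724 and 602 CPM in GABAergic nuclei. Slc17a6 nuclei were at 1066 and 721 CPM, so the dopaminergic level was lower by 1.77-fold in CCI and 1.26-fold in WT.

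The T-type genes divided. Cacna1i (Cav3.3) was all but missing from dopaminergic nuclei, with 14 UMIs in CCI and 3 UMIs in WT (3.90 and 1.56 CPM), against 904 and 181 UMIs in GABAergic nuclei (60.5 and 44.8 CPM). The log2 ratio was -3.95 (-4.83 to -3.20) in CCI and -4.85 (-7.14 to -3.28) in WT. The Slc17a6 group, at 51.6 and 55.9 CPM, gave -3.73 and -5.17. The low level was not particular to dopaminergic nuclei. A Slc17a6 subcluster led by Synpo2 and Lef1 was at 4.64 CPM in CCI (13 UMIs, 260 nuclei). In WT it had 0 UMIs over 46 nuclei, with an interval up to 32.0 CPM. After each nucleus was thinned to 1000 UMIs, Cacna1i was seen in 0.271% of CCI dopaminergic nuclei (1 of 369) and 0.267% of WT ones (2 of 749), against 5.26% and 4.28% of GABAergic nuclei. Thinning left out nuclei under 1000 UMIs. Astrocytes (median 2323.5 and 756 UMIs before thinning), which served as the background, gave 0.340% in CCI and 0.500% in WT. The dopaminergic share did not exceed it. These astrocyte shares rest on 1471 of 1484 CCI and 200 of 1265 WT nuclei. Without thinning the shares were 3.52% and 0.359% in CCI and WT dopaminergic nuclei (median 9126 and 2103 UMIs), against 27.7% and 6.44% in GABAergic nuclei (median 5708 and 1298 UMIs). Cacna1g (Cav3.1), by contrast, was at 85.0 and 89.2 CPM in CCI and WT dopaminergic nuclei, against 62.2 and 56.2 CPM in GABAergic and 101 and 78.1 CPM in Slc17a6 nuclei. Cacna1h (Cav3.2), a T-type channel also known from pain-sensing neurons, had 42 and 11 UMIs in CCI and WT dopaminergic nuclei and was at 21.9 CPM in CCI and 20.3 CPM in WT GABAergic nuclei.

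Of the calcium channel beta subunits, Cacnb2 was higher in dopaminergic nuclei, at 969 CPM in CCI and 986 CPM in WT, against 536 and 512 CPM in GABAergic and 622 and 542 CPM in Slc17a6 nuclei. Cacnb4 was at 291 and 350.05 CPM in CCI and WT dopaminergic nuclei and within 1.5-fold of both other groups. Cacnb1 and Cacnb3 had 54 and 20 UMIs and 34 and 8 UMIs in CCI and WT dopaminergic nuclei, too few to compare. None of the TARPs tested passed in either comparison, and Cacng5 had too few UMIs to test. Cacng2 (stargazin) was at 103 and 100.1 CPM in CCI and WT dopaminergic nuclei, against 128 and 122 CPM in GABAergic nuclei. Cacng3 was at 70.2 and 65.9 CPM, against 64.2 and 59.6 CPM.

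**Figure D2:**
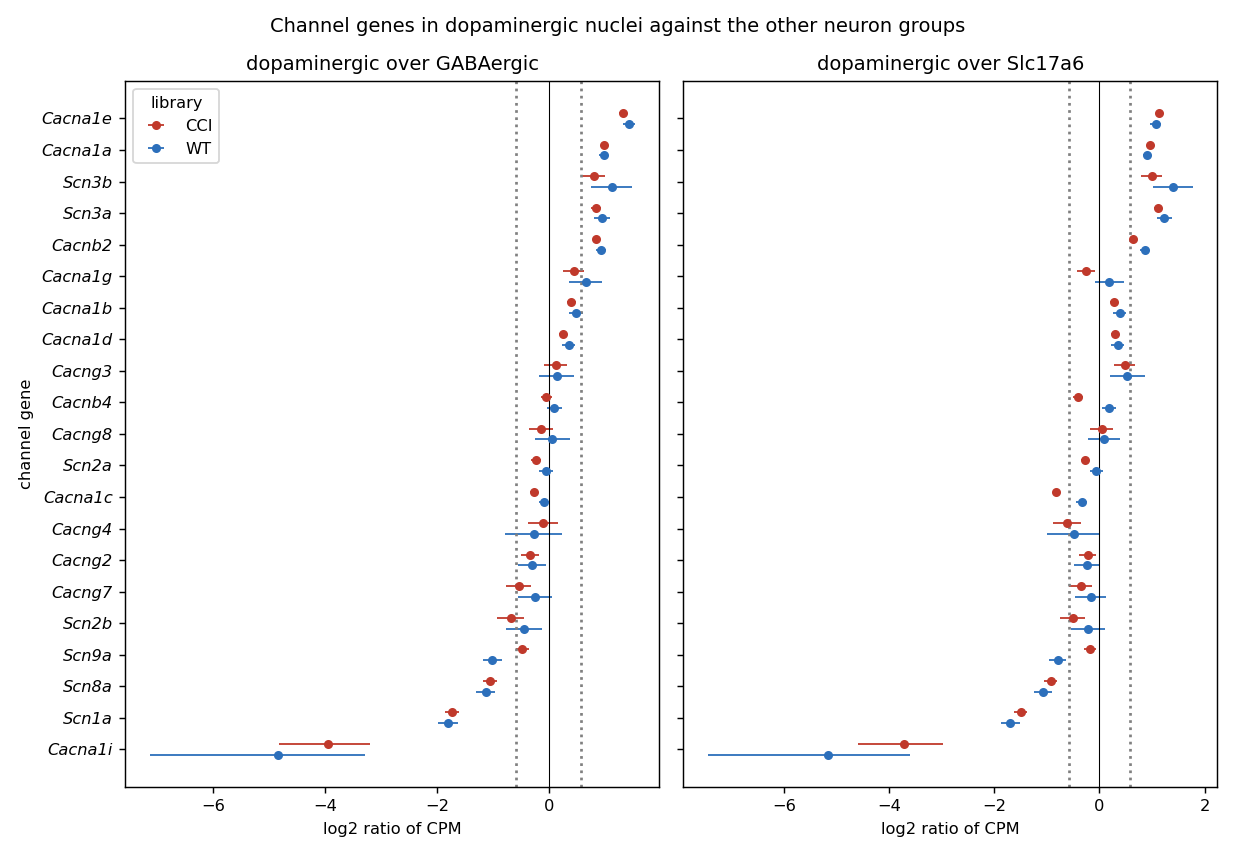
Log2 ratio of CPM in dopaminergic over GABAergic nuclei (left) and over Slc17a6 nuclei (right) for 21 channel genes, with points for the CCI and WT libraries, bars for 95% intervals of counting error and dotted lines at 1.5-fold. In both panels and both libraries Cacna1e, Cacna1a, Scn3b, Scn3a and Cacnb2 lie to the right of the dotted lines, and Scn8a, Scn1a and Cacna1i to the left.

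Dopaminergic nuclei were not uniform. At a Leiden resolution of 2.0, a finer clustering, they fell into subclusters rich and poor in Sox6, a transcription factor that marks some of the midbrain dopamine neurons: 502 against 57.7 CPM of Sox6 in CCI (234 and 107 nuclei) and 669 against 102 CPM in WT (487 and 311 nuclei). The Sox6-rich nuclei of the 2 libraries lay in different subclusters, so the comparison was made within each library. This split was examined after its values had been seen. One of 19 members, Cacng3, differed by more than 1.5-fold in both libraries (5.26%, with 7.62% of 3346 genes in either direction and 4.06% lower), at 53.9 CPM in Sox6-rich against 113 CPM in Sox6-poor CCI nuclei and at 35.6 against 108 CPM in WT nuclei. Scn9a was lower in Sox6-rich nuclei in both libraries but passed 1.5-fold in WT alone, at 179 against 229 CPM in CCI (log2 -0.36, -0.60 to -0.11) and at 135 against 270.3 CPM in WT (log2 -1.01, -1.32 to -0.69). Cacna1a, Cacna1e and Cacnb2 were higher in the Sox6-rich nuclei of CCI (log2 0.57, 0.43 and 0.32) but not in those of WT (-0.08, -0.03 and -0.12).

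Scn9a was detected in all 3 neuron groups, and it was the channel gene that was lower in CCI in the most neuron subclusters. It was at 263 CPM in CCI and 371 CPM in WT GABAergic nuclei (3937 and 1498 UMIs), at 216 and 319.7 CPM in Slc17a6 nuclei (5310 and 1412 UMIs) and at 191 and 184 CPM in dopaminergic nuclei (684 and 355 UMIs). The 2 WT values of the non-dopaminergic groups lay above all 4 others. The order GABAergic, Slc17a6, dopaminergic was the same in both libraries, and intervals of neighbouring groups did not overlap in either. With neurons grouped by their own marker UMIs the WT log2 ratio of GABAergic over Slc17a6 nuclei was -0.10, against 0.21, and with thinned nuclei the CCI ratio of dopaminergic over Slc17a6 nuclei was 0.10, against -0.18. Each step of that order thus turned round in 1 library under 1 setting. The log2 ratio of dopaminergic over GABAergic nuclei was -0.47 (-0.59 to -0.35) in CCI and -1.01 (-1.18 to -0.84) in WT and kept its sign.

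In nuclei thinned to 1000 UMIs, Scn9a was seen in 22.5% of CCI and 31.0% of WT GABAergic nuclei, 18.0% and 24.8% of Slc17a6 nuclei and 19.2% and 17.5% of dopaminergic nuclei. Without thinning, the shares were 69.0% and 37.5%, 70.9% and 41.4%, and 74.0% and 31.6%, at medians of 5708 and 1298, 6776 and 1819, and 9126 and 2103 UMIs. Each unthinned share was higher in the deeper CCI library, whereas after thinning the GABAergic and Slc17a6 shares were lower there. Thinning left out nuclei under 1000 UMIs. Of GABAergic nuclei, 2281 of 2289 in CCI and 1822 of 2640 in WT remained, so the thinned WT shares cover the deeper WT nuclei. Astrocytes, taken as the class that should lack the gene, gave 2.99% in CCI and 2.5% in WT after thinning. These shares rest on 1471 of 1484 CCI and 200 of 1265 WT astrocytes, whose medians before thinning were 2323.5 and 756 UMIs over the whole class.

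Outside neurons the Scn9a signal was no greater than that of the summed neuron markers. Relative to its level in all neurons, Scn9a stood at 11.5% in CCI and 11.3% in WT astrocytes, 15.4% and 14.1% in oligodendrocytes, 14.96% and 16.8% in OPCs and 27.0% and 48.9% in microglia. The summed list of 8 neuron markers stood at 12.1% and 14.5%, 15.9% and 15.01%, 17.2% and 18.8%, and 29.1% and 51.6% in the same classes. In each class and library Scn9a lay below the summed list. It lay above the lowest single marker in each of them but WT astrocytes, where that marker stood at 12.5%. Whether its glial counts come from neuronal RNA was not tested.

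Scn9a was lower in CCI than in WT in the GABAergic and Slc17a6 groups. The log2 ratio was -0.49 (-0.58 to -0.41) in GABAergic nuclei, -0.57 (-0.65 to -0.48) in Slc17a6 nuclei and 0.05 (-0.14 to 0.24) in dopaminergic nuclei. The fold was 1.41 and 1.48 in the first 2 groups, inside the 1.5-fold used to name genes. Of all tested genes, 5.82% in GABAergic nuclei (682 of 11727) and 4.68% in Slc17a6 nuclei (608 of 12997) had a ratio as low or lower. The ratio was negative under every alternative run, from -0.54 to -0.44 in GABAergic and from -0.91 to -0.40 in Slc17a6 nuclei, and in Slc17a6 nuclei it passed 1.5-fold under 4 of them.

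The lower level was spread over subclusters. Of 20 named neuron subclusters with at least 20 nuclei in each library, Scn9a was lower in CCI in 17, and its interval lay below 0 in 8 and above 0 in none. All 8 GABAergic subclusters and 9 of 11 Slc17a6 subclusters were lower, and the 1 shared dopaminergic subcluster was at 214 CPM in CCI and 184 CPM in WT, with an interval that included 0. That subcluster held 133 CCI nuclei and all 835 WT dopaminergic nuclei. At the finer clustering the Sox6-poor subcluster, which held nuclei of both libraries, ran the other way, at 229 CPM in CCI and 270.3 CPM in WT. Among members with values in all 20 subclusters, the next most often lower was Scn8a, in 15, with 4 intervals below 0. Subclusters of 1 library share its depth and its RNA background, so they are not replicates.

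The highest Scn9a in either library lay in a GABAergic subcluster led by Pax5, with Zfpm2 among its leading genes, at 449 CPM in CCI and 508 CPM in WT (439 and 302 UMIs). A Slc17a6 subcluster with Syt2, Nefm and Spp1 among its leading genes was next in WT, at 283 CPM in CCI and 501 CPM in WT, with a log2 ratio of -0.82 (-1.003 to -0.64). A smaller Slc17a6 subcluster with Sim1 and Rxfp1 was at 233 and 485 CPM, on 211 and 23 UMIs. The dopaminergic subcluster with no WT nucleus was at 181 CPM. Exons of Gm13629 overlap Scn9a on the other strand, and whether the counting used strand is not given in the sources used here.

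**Figure D3:**
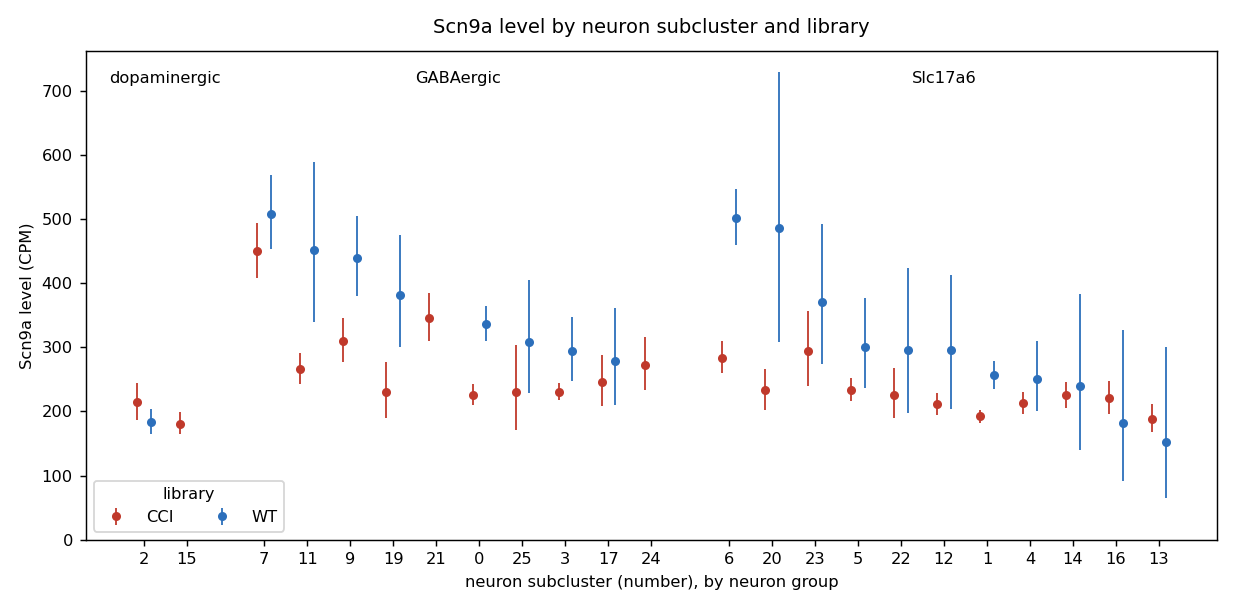
Scn9a level in CPM (vertical axis) in each named neuron subcluster (horizontal axis, by group), with points for the CCI and WT libraries and bars for 95% intervals of counting error. WT points lie above CCI points in 17 of 20 named subclusters present in both libraries, and subcluster 7, the Pax5-led GABAergic one, is the highest in each library.

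The genes whose level followed Scn9a most closely were found by Spearman's rho over 50 points, the 28 CCI and 22 WT subclusters, among 9535 genes. They were Oip5os1 (0.74), Bckdhb (0.73), Snhg14 (0.72), Esrrg (0.72), Scn1a (0.69), Fam49b (0.69), Ttll5 (0.69), Snph (0.68), Atp8a2 (0.67) and Gk (0.67). Points of a library share its depth, so the library difference enters these values: for Bckdhb rho was 0.43 within CCI and 0.91 within WT. Scn1a, a neighbour of Scn9a on chromosome 2, gave 0.62 within CCI and 0.88 within WT. Among the other channel genes Scn8a gave 0.65, and Cacna1e (-0.52) and Cacna1g (-0.43) ran most opposite.

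Between the libraries, most channel genes in neurons differed by less than 1.5-fold. In dopaminergic nuclei 1 of 21 tested members differed by more than 1.5-fold (4.76%, with 7.36% of 7157 genes), in GABAergic nuclei 3 of 29 (10.3%, with 9.76% of 11727) and in Slc17a6 nuclei 5 of 29 (17.2%, with 11.5% of 12997). The member in dopaminergic nuclei was higher in CCI, as were 4.54% of genes there. In GABAergic nuclei 2 were higher and 1 lower, with 5.83% and 3.92% of genes, and in Slc17a6 nuclei 4 were higher and 1 lower, with 7.13% and 4.38%. Each share rests on 1 to 5 members, and none is read as standing apart from that of all genes. The median log2 ratio of CCI over WT was 0.03 in dopaminergic, 0.11 in GABAergic and 0.10 in Slc17a6 nuclei, against 0.02, 0.04 and 0.03 over all genes. The members summed to 7131 CPM in CCI and 6850 CPM in WT dopaminergic nuclei, 6025 and 5723 CPM in GABAergic nuclei and 6436 and 5877 CPM in Slc17a6 nuclei. That left 14, 6 and 6 members under 100 UMIs in the 3 groups.

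The members past 1.5-fold that are described here were of low level. Scn4b, a beta subunit tied to the resurgent sodium current, was lower in CCI in both non-dopaminergic groups: 5.82 CPM in CCI and 13.1 CPM in WT GABAergic nuclei (87 and 53 UMIs, log2 -1.17, -1.68 to -0.65), and 6.06 and 17.4 CPM in Slc17a6 nuclei (149 and 77 UMIs, log2 -1.52, -1.93 to -1.11). It was most abundant in the Slc17a6 subcluster with Syt2 and Nefm, at 36.1 CPM in CCI and 57.1 CPM in WT. Over the alternatives its ratio ran from -1.29 to -1.03 in GABAergic and from -2.43 to -0.996 in Slc17a6 nuclei. In thinned GABAergic nuclei Scn4b had under 100 UMIs and was not among the 22 members tested. The subcluster with Syt2 and Nefm held 189 CCI and 328 WT nuclei, and the Slc17a6 group as a whole 3235 and 2151.

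Among the TARPs, Cacng5 was higher in CCI in both of those groups, at 14.3 CPM in CCI and 6.68 CPM in WT GABAergic nuclei (213 and 27 UMIs, log2 1.09, 0.51 to 1.73) and at 13.2 and 6.34 CPM in Slc17a6 nuclei (325 and 28 UMIs, log2 1.06, 0.50 to 1.67). Cacng4 was higher in CCI in dopaminergic nuclei, at 37.9 CPM in CCI and 24.4 CPM in WT (136 and 47 UMIs, log2 0.64, 0.15 to 1.15), and in Slc17a6 nuclei, at 57.9 and 34.2 CPM (1424 and 151 UMIs, log2 0.76, 0.52 to 1.01). Cacnb1 was at 14.0 CPM in CCI and 8.83 CPM in WT Slc17a6 nuclei (343 and 39 UMIs, log2 0.66, 0.18 to 1.18). Over the alternatives its ratio ran from 0.52 after thinning, inside 1.5-fold, to 1.42 with each subcluster given equal weight. Equal weight left Cacng4 at 0.29 and Cacng5 at 0.13 in Slc17a6 nuclei, and grouping neurons by their own UMIs gave 0.56 and 1.73. Of the Cacng5 UMIs in CCI GABAergic nuclei, 65 came from 1 subcluster (100.5 CPM) that held 106 CCI and 3 WT nuclei, and with equal weight of the shared subclusters the ratio was 0.68. In dopaminergic nuclei Cacng4 was at 0.56 at the finer clustering, inside 1.5-fold, and at 1.65 in the 1 shared subcluster. After thinning it was at 1.44, but there it had under 100 UMIs and was not among the 13 members tested. None of these values has a replicate.

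**Figure D4:**
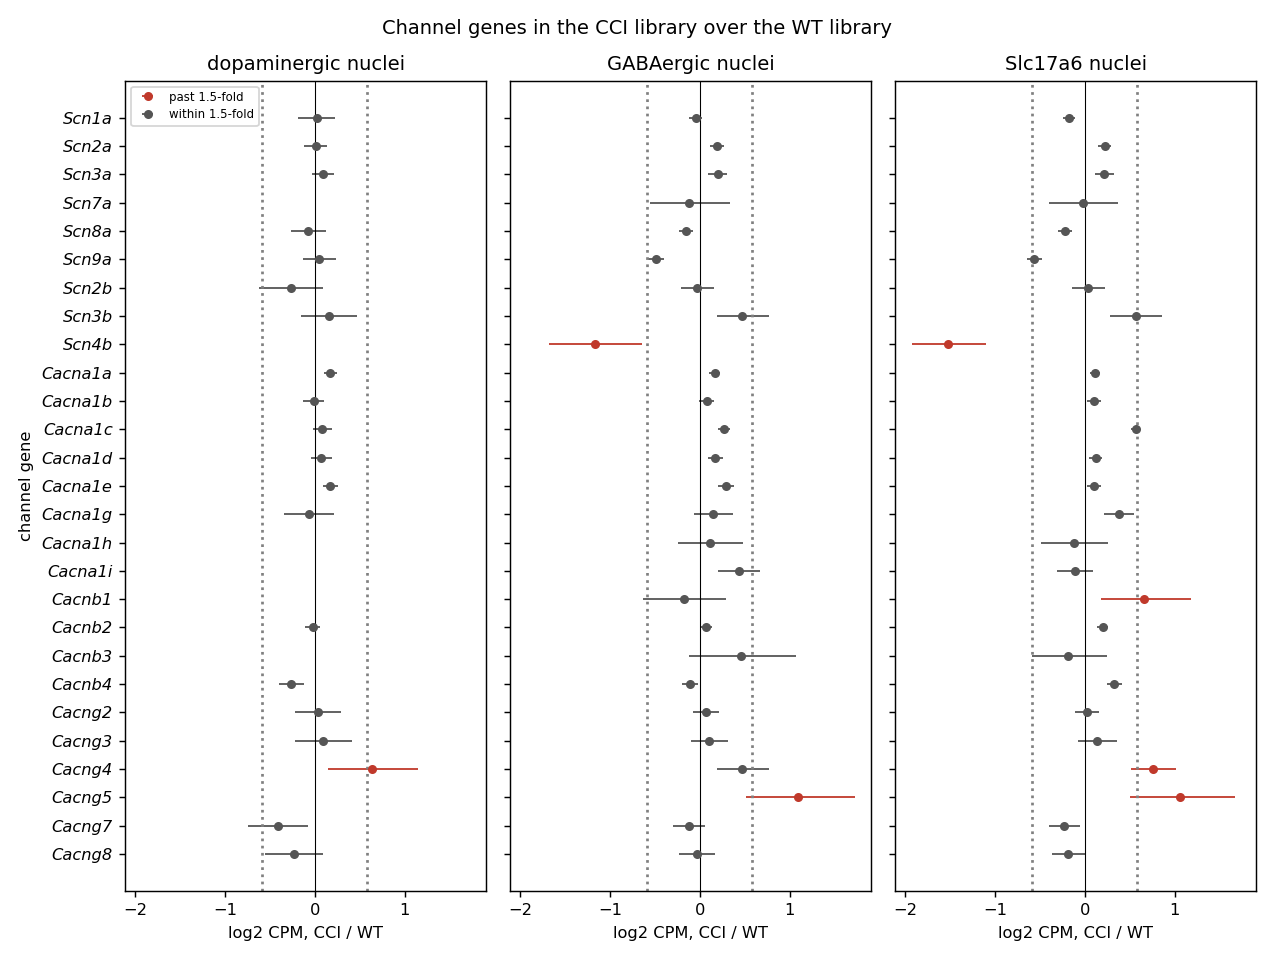
Log2 ratio of CCI over WT for channel genes with at least 100 UMIs in dopaminergic, GABAergic and Slc17a6 nuclei (panels), with bars for 95% intervals of counting error and dotted lines at 1.5-fold. Most points lie between the dotted lines; Scn4b lies to the left in GABAergic and Slc17a6 nuclei and Cacng5 to the right.

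Cacna1c, the Cav1.2 pore, varied by subcluster within the Slc17a6 group. It was at 1066 CPM in CCI and 721 CPM in WT Slc17a6 nuclei (26188 and 3183 UMIs), a log2 ratio of 0.56 (0.51 to 0.62) that stayed just inside 1.5-fold. Its level was far higher in 2 subclusters led by Synpo2, with Lef1 and Tcf7l2 among their leading genes: 2611 CPM in CCI and 1901 CPM in WT in one, and 1814 and 1461 CPM in the other. The first held 260 CCI and 46 WT nuclei and the second 240 and 34. In the largest Slc17a6 subcluster Cacna1c was at 758 CPM in CCI and 724 CPM in WT. With each subcluster given equal weight the ratio was 0.29. The first of the Synpo2-led subclusters was also rich in Cacnb4, at 1035 CPM in CCI and 1093.5 CPM in WT, and in Cacna1g, at 182 and 226 CPM. Scn3b stood at a log2 ratio of 0.56 (0.28 to 0.86) in Slc17a6 nuclei, 36.8 CPM in CCI and 24.9 CPM in WT.

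Partner genes of these channels were taken from 8 lists of 33 genes that do not overlap the members. In dopaminergic nuclei 0 of 23 tested partners passed 1.5-fold between the libraries, in GABAergic nuclei 2 of 26 and in Slc17a6 nuclei 2 of 27, where 7.36%, 9.76% and 11.5% of all genes did. Both GABAergic ones were higher in CCI. Cacna2d3, an alpha2delta subunit of the family that gabapentin binds through other members, was at 662 CPM in CCI and 371 CPM in WT GABAergic nuclei (log2 0.84, 0.76 to 0.92). Fgf13, which binds the tails of sodium channels, was at 320.2 and 189 CPM (log2 0.76, 0.65 to 0.87). In Slc17a6 nuclei Fgf11, of the same family, was at 4.84 and 9.74 CPM (log2 -1.01, -1.52 to -0.47). Cabp1, a calcium sensor that binds calcium channels, was at 51.5 and 83.8 CPM (log2 -0.70, -0.87 to -0.53). The 5 membrane anchors (median log2 0.10 and 0.01 in GABAergic and Slc17a6 nuclei) and the 4 tested genes of the sodium leak channel complex (0.07 and 0.05) had no gene past the fold in any neuron group, nor had the 4 AMPA receptor subunits, while the skeletal muscle pore and the 4 inhibitory GTPases had too few UMIs to test.

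Among glia, the channel genes stood apart most in OPCs. Each glial class was set against the other 3 within a library. This covered 17 members and 6579 genes with at least 100 UMIs over all glial classes together in each library. In OPCs 12 of 17 members were higher in both libraries and none lower (70.6%, with 30.6% of genes in either direction and 11.4% higher). Neuron markers stood at 4005 CPM in CCI and 4138 CPM in WT OPCs, against 2836 and 3188 CPM in astrocytes and 3713 and 3306 CPM in oligodendrocytes. RNA of neuron markers was thus counted in all 3 classes, and whether it came from neurons was not tested. Relative to neurons, 6 of 27 members (Cacng4, Cacng7, Cacng8, Cacnb1, Cacnb4 and Scn3a) stood higher than each of the 8 neuron markers in both libraries of OPCs (22.2%). Of all 9677 genes with at least 100 neuron UMIs in each library 55.6% did, a share above that of the members, so the count is no sign that the channel genes stand apart. OPCs are known to carry sodium and calcium currents and to receive synapses.

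Cacng4 had the highest ratio of OPCs over other glia. It was at 773 CPM in CCI and 641 CPM in WT OPCs (987 and 304 UMIs), against 28.1 and 24.2 CPM in the other glia, a log2 ratio of 4.78 (4.601 to 4.96) and 4.73 (4.40 to 5.07). After thinning, 50.6% of CCI OPCs (195 of 385, exact 95% interval 45.5% to 55.8%) and 42.6% of WT OPCs (55 of 129, 34.0% to 51.6%) had a Cacng4 UMI, against 1.26% and 1.30% of oligodendrocytes. Unthinned shares were 83.9% and 39.2% of OPCs, at medians of 3028 and 808 UMIs, and 2.68% and 1.07% of oligodendrocytes, at 1916 and 713 UMIs. Along the lineage the level was already low in committed precursors (the cells between OPC and oligodendrocyte), at 34.1 CPM in CCI and 39.3 CPM in WT (4 and 10 UMIs). Scn3a was at 197 and 194 CPM in CCI and WT OPCs (log2 1.89 and 1.76 over other glia) and Cacna1c at 556 and 606 CPM (1.68 and 1.86).

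In astrocytes and oligodendrocytes the share of members set apart was at or below that of all genes. In astrocytes 1 of 17 was higher and 4 lower (29.4%, with 34.2% of genes, 14.1% higher and 20% lower), and the higher one, the TARP Cacng8, was at 75.8 CPM in CCI and 89.9 CPM in WT, against 17.7 and 19.3 CPM in the other glia. The neuron groups reached at most 63.8 CPM in CCI and 68.5 CPM in WT, with intervals that overlapped that of astrocytes in both libraries. In oligodendrocytes 1 was higher and 5 lower (35.3%, with 35.3% of genes, 16.4% higher and 18.9% lower). The higher one, Cacnb4, was at 308 CPM in CCI and 263 CPM in WT, against 148 and 161 CPM in the other glia, and committed precursors had 536 and 464 CPM (63 and 118 UMIs). In microglia 7 were higher and 1 lower (47.1%, with 30.6% of genes, 12.6% higher and 18% lower), but 1 alone, Cacnb2, of 27 stood above every neuron marker relative to neurons in both libraries, where 35% of 9677 genes did. Cacnb2 was at 931 CPM in CCI and 672 CPM in WT microglia (599 and 153 UMIs), against 162 and 163 CPM in the other glia. Its log2 ratio was 2.52 (2.39 to 2.66) in CCI and 2.04 (1.78 to 2.29) in WT.

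**Figure D5:**
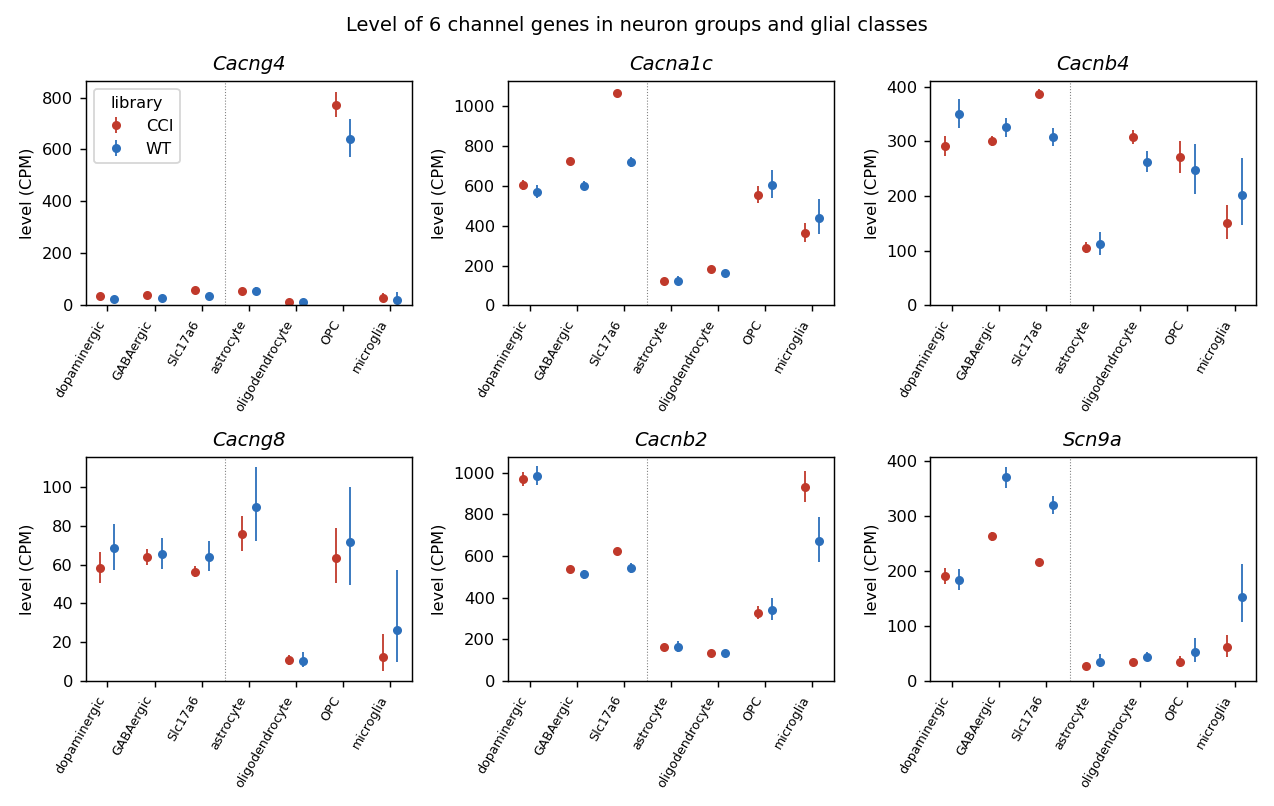
Levels in CPM of Cacng4, Cacna1c, Cacnb4, Cacng8, Cacnb2 and Scn9a (panels) in the 7 classes, with points for the CCI and WT libraries and bars for 95% intervals of counting error. Cacng4 peaks in OPCs, Cacng8 in astrocytes, and Cacnb2 is high in both dopaminergic nuclei and microglia, at 969 and 931 CPM in CCI.

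Between the libraries the glial channel genes moved little outside microglia. No member of 17 in astrocytes (0%, with 11.3% of 6679 genes) or of 14 in OPCs (0%, with 7.01% of 3197) passed 1.5-fold. In oligodendrocytes 1 of 21 did (4.76%, with 9.51% of 9161 genes in either direction and 3.15% lower): Scn8a, at 85.7 CPM in CCI and 134 CPM in WT (661 and 399 UMIs, log2 -0.65, -0.83 to -0.46). Of the oligodendrocytes, 63.3% in CCI and 70.3% in WT lay in different clusters, and with equal weight of the shared clusters the ratio was -0.28, inside 1.5-fold. In microglia 5 of 10 members were lower in CCI (50%, with 39.7% of 2014 genes in either direction and 16.4% lower): Cacna1a (-1.12), Scn8a (-0.99), Scn1a (-0.89), Cacna1b (-0.85) and Cacna1e (-0.79). Neuron markers were also lower there, at 6786 CPM in CCI and 11360 CPM in WT microglia, and the AMPA receptor genes Gria1, Gria2, Gria3 and Gria4 all lay between -1.08 and -0.87. Genes over 300 kb had a median of -0.50 in microglia, against 0.15 over all genes. Of the 5 members Cacna1e alone is that long. Cacna1a, Scn8a, Scn1a and Cacna1b are between 100 and 300 kb, where the median was 0.11. The part of neuronal RNA in the microglial differences was not tested, and at the finer clustering Cacna1e was at 0.23. The smallest ratios of the others over the alternatives were -0.15 for Cacna1a, -0.53 for Scn8a, -0.27 for Scn1a and -0.11 for Cacna1b, all inside 1.5-fold.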

How the data were processed

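Nuclei of mouse VTA were profiled in 1 CCI and 1 WT library by 10x Genomics 3' v2 chemistry. The labels' design speaks of nuclei and their protocol of enzymatic digestion of the tissue. The authors deposited raw UMI counts per gene and barcode, made with Cell Ranger 7.1.0 per the file headers; mm10 and Seurat are named in the submitters' processing notes. The annotation release, the use of intronic reads and the strand setting are not given in the sources used here. Gene IDs matched GENCODE vM21 for 32158 of 32285 genes, which supplied coordinates and lengths.

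Barcodes with at least 200 genes, 500 UMIs and at most 20% mitochondrial UMIs were kept, and doublets called by Scrublet (expected rate 10%) were removed, 934 in CCI and 1296 in WT. The 35 channel genes were left out of the 2000 variable genes, which were scaled within each library. Clusters came from 30 principal components, 20 neighbours and Leiden clustering at resolution 1 (Scanpy 1.11.5, leidenalg 0.10.2, scikit-learn 1.9.0). They were named from marker lists when the best list had a level of at least 0.25 and 1.5 times the next, with 3 markers in at least 5% of nuclei. Leading genes were first taken against all other clusters. Clusters of other classes alone were used once the cluster tables were known. Neuron subclusters were grouped by summed CPM of Slc6a3 and Th, of Gad1, Gad2 and Slc32a1, or of Slc17a6, when the highest was at least 2 times the others. A subcluster whose 10 leading genes held more markers from some other list than from the list for its group was left unnamed, as was, by a choice made after seeing it, one led by 3 or more haemoglobin genes.

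UMIs were summed per class and library and divided by the class total (CPM). Ratios carry exact conditional 95% intervals, levels exact Poisson and shares exact binomial (Clopper-Pearson) ones. All cover counting error only. Genes needed 100 UMIs over both libraries for CCI over WT. For contrasts between classes they needed 100 UMIs in each library over the compared classes together. The text names members past 1.5-fold, Scn9a, the 10 genes most like it and the list members past the fold. Contrasts of Sox6-rich with Sox6-poor nuclei and of glial classes were added after seeing the data, and genes near a threshold or leading a subcluster were named after their values were seen. A count of 0 allows up to 3 counts. Results for some genes are not reported here. With 1 library a group there was no test and no p-value. The ratio and interval code was tested on simulated data. Members and partner lists were chosen with earlier results of these data known. Alternatives were finer clustering (resolution 2), stricter filters (500 genes, 10% mitochondrial), no doublet removal, a minimum of 20 UMIs, TMM scaling (edgeR 4.0.16, R 4.3.3), neurons grouped by own UMIs, equal weight of subclusters and thinning to 1000 UMIs. Thinning left out nuclei under 1000 UMIs. Python 3.11.15, NumPy 2.4.6, SciPy 1.17.1, pandas 2.3.3 and matplotlib 3.10.9 were used.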

Additional observations from a re-analysis of the deposited data

How the results depend on the processing

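Of 122 alternative values of the main results, 89 stayed within the counting error or within 1.5 times the count, and 33 moved. No paired analysis was possible because each group is 1 library, with no replicate to leave out. The 9 members that set dopaminergic nuclei apart are compared within a library, although depth per nucleus differs between classes. Some alternatives leave few nuclei, with 72 WT microglia at finer clustering, 52 WT microglia after thinning and 88 WT astrocytes without doublet removal. The causes of the moves were not tested, except that thinning and lower minimums change how many genes are tested.

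For Scn9a, the ratio of GABAergic over Slc17a6 nuclei was 0.39 in CCI after thinning, and in WT -0.10 with neurons grouped by their own UMIs and 0.40 after thinning. Dopaminergic over GABAergic was -0.29 in CCI after thinning. Dopaminergic over Slc17a6 was 0.10 in CCI after thinning, and in WT -1.13 with own UMIs and -0.49 after thinning. The median member ratio of CCI over WT in microglia was 0.24 at finer clustering, -0.13 without doublet removal and 0.20 after thinning, and in oligodendrocytes 0.35 with equal weight of 3 subclusters.

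Without doublet removal 1 member passed between the GABAergic and Slc17a6 groups. Counts of members past 1.5-fold between CCI and WT, with the members tested, were as follows. In GABAergic nuclei they were 6 of 29 with own UMIs, 5 of 29 without doublet removal and 0 of 22 after thinning. In Slc17a6 nuclei they were 3 of 29 with equal weight and 1 of 22 after thinning. In dopaminergic nuclei they were 0 of 21 at finer clustering, 4 of 26 with a minimum of 20 UMIs, 3 of 20 in the 1 shared subcluster and 0 of 13 after thinning. In astrocytes they were 3 of 25 with the lower minimum, 3 of 17 with equal weight, 4 of 14 without doublet removal and 1 of 11 after thinning. In OPCs the lower minimum gave 6 of 23. In oligodendrocytes they were 3 of 28 with the lower minimum, 2 of 21 with equal weight and 4 of 15 after thinning. In microglia they were 0 of 2 at finer clustering, 11 of 19 with the lower minimum, 1 of 12 without doublet removal and 1 of 2 after thinning. Shares over all genes are not given for these settings, so no count is read as a gain or loss. Cacna1e in microglia reversed at finer clustering (0.23).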

Other observations

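Some neuron subclusters left outside the 3 groups had channel levels of their own. One led by Glis3, Slit3 and Itga8 (95 CCI and 221 WT nuclei) had Cacnb2 at 1136 CPM in CCI and 939 CPM in WT and Cacng8 at 128 CPM in each. One led by Sst, Egfr and Nos1, with 92 CCI nuclei, had Cacng4 at 191.5 CPM and Cacng5 at 143 CPM. A serotonergic one with Tph2 and Slc6a4, of 20 CCI nuclei, had Cacna1a at 1758 CPM and Scn9a at 363 CPM. These subclusters were picked after their values were seen, and those of 1 library have no counterpart to compare.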
